A study of Rattus norvegicus with 9 samples.

Results

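The genes described are the interleukins, their receptor chains and the proteins that block them, with the IL-17 group (Il17 genes, Il17 receptors and Il25) left aside. Members were taken by symbol, as every gene of the platform annotation whose symbol begins with Il and a digit and is the only one named for a probe set. They were 65 of 18166 named genes: 30 ligands, 29 receptor chains and 6 inhibitors or decoys. Where a gene had several probe sets, the one brightest on average across all 9 was used. The genes Il15ra, Il2rb, Il12rb1 and Il27 are not named in the annotation used here, and Il4i1 is named only on a probe set with several symbols, so these were not analysed here.

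RNA was taken from the livers of female F344 rats by laser microdissection of frozen sections 7 µm thick and measured on whole-transcript Affymetrix arrays. All animals had received 2 injections of retrorsine at 30 mg/kg with 2 weeks between them, and part of the liver was removed 4 weeks later. Retrorsine is a plant alkaloid that stops most hepatocytes from dividing, and small hepatocyte-like progenitor cells (SHPCs) then grow in clusters. There were 3 groups of 3 arrays: SHPC clusters from livers that had also been given sorted Thy1+ cells through the spleen (called SHPC+Thy1 here), SHPC clusters from livers without such cells, and hepatocytes beside the clusters in livers without such cells. The donor cells carried dipeptidyl peptidase IV (DPPIV), which the recipients lacked, and Thy1 is a surface protein of several stromal and immune cells. Neither the labels nor the protocols give the animals' ages, the time from hepatectomy to sampling or the number of animals. Regions from 1 animal may therefore stand as separate arrays. Within a group this would make the p-values below too small, since they measure only the spread between arrays. Regions from 1 animal in both groups of a comparison would not be paired in the main fit, which can make its p-values too large. Clusters were chosen by their look under the microscope, so a captured region can hold Kupffer, endothelial and other cells beside hepatocytes.

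Interleukins are secreted proteins by which immune, stromal and epithelial cells signal to each other. Those of the IL-1 family act through receptors with an intracellular domain shared with Toll-like receptors and through MyD88 and NF-κB, and are held in check by a receptor antagonist, a binding protein and a decoy receptor. Most others act through paired receptor chains, often with a shared subunit such as gp130 (Il6st) or the common gamma chain (Il2rg), and through JAK kinases and STAT proteins. In the liver, IL-6 and IL-1 are known as the inducers of acute phase proteins in hepatocytes, and IL-6 has a known part in regrowth after hepatectomy.

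Among these genes a single difference passed in a single comparison. Il1rn, the secreted antagonist that occupies the IL-1 receptor without signalling, was higher in SHPC+Thy1 clusters than in hepatocytes. It was 1.89% of tested members, against 1.18% of all tested genes, and the call was lost in 7 of 9 fits that leave out 1 array. Members of the IL-1 and IL-18 systems and several receptor chains lay apart between groups by smaller amounts that did not pass. The share of members lying apart was 18.9% between SHPC+Thy1 and SHPC (15.8% of all genes). It was 5.66% between SHPC and hepatocytes (5.22%) and 15.1% between SHPC+Thy1 and hepatocytes (19.2%). The T-cell ligands Il2 and Il21 were at background on every array.

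The 250 bases before a RefSeq transcript start are shown for a pair of genes, the antagonist Il1rn and the signalling receptor Il1r1. They were chosen because they lay on opposite sides of hepatocytes in SHPC+Thy1 clusters. Only Il1rn passed, close to the threshold, and Il1r1 did not (limma adjusted p = 0.415). Both are on the plus strand of RefSeq's rat assembly GRCr8, at chr3:27520072-27520321 for Il1rn and chr9:50034133-50034382 for Il1r1, and capitals mark a match to a κB-like motif.
Il1rn: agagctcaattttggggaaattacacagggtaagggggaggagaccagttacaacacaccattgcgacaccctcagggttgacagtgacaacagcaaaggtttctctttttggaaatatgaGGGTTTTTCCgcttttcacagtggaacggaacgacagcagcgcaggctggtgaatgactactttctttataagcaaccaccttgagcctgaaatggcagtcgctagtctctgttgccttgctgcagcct
Il1r1: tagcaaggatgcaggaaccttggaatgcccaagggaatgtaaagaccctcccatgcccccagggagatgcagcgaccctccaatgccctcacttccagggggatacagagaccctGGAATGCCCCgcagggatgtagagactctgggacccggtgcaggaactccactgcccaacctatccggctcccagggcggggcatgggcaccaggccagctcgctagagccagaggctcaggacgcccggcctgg
The κB-like motif searched was GGG, then 5 bases of any kind, then CC on both strands. Counting back from the start, its match began at position −129 in Il1rn and, on the other strand, at position −135 in Il1r1. It was found in 42.3% of 33469 promoters of the same length, and in 21 of the 43 tested members that have a promoter entry (48.8%), so a match is common. Neither stretch, nor that of Il33, held a match to the STAT motif TTCNNNGAA (7.67% of all promoters, 5 of 43 members) or the C/EBP-like motif TTGCNNAA (9.22%, 6 of 43 members), and that of Il33 held none to the κB-like motif either. Of the 65 members, 55 had a promoter entry. In both genes shown, the start used lies inside the gene's annotated span, so other starts of the gene are not covered.

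All levels are log2 of the deposited intensity. An array's background was set at the 25th percentile of its 36685 probe sets, between 2.85 and 3.14, and a gene was tested where at least 3 of the 9 arrays lay above it. Of the 65 members 53 were tested (81.5%, against 86.9% of all named genes). Set against the other 7, array 2 of the SHPC group and array 2 of the hepatocyte group stood apart, with median intensities of 24.06 and 23.01 on the linear scale against 19.65 to 20.63 and an SD of log2 values of 1.94 and 1.98 against 2.09 to 2.13. No SHPC+Thy1 array was of that kind. Many values that involve SHPC are therefore also given without SHPC array 2, though not every value that it moves. Arrays of SHPC+Thy1 deviated from their group mean by at most 0.0993 on average, and those of SHPC and hepatocytes by at least 0.143. The 8 hepatocyte markers, among them Alb, were above background on all 9 arrays, with a summed log2 level of 15.19 to 15.22 in SHPC+Thy1, 14.98 to 15.17 in SHPC and 14.96 to 15.10 in hepatocytes.

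SHPC array 2 also drew bright and dim members together. It was the lowest of the 9 arrays for 8 of the 22 members above the array median throughout (36.4%, against 38.6% of 9870 such genes). It was the highest array for 17 of the other 31 tested members (54.8%, against 36.1% of 5923 such genes). Its median deviation from a member's mean over the 9 arrays was −0.28 for those 22 and 0.30 for those 31, against −0.20 and 0.18 over all such genes.

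**Figure D1:**
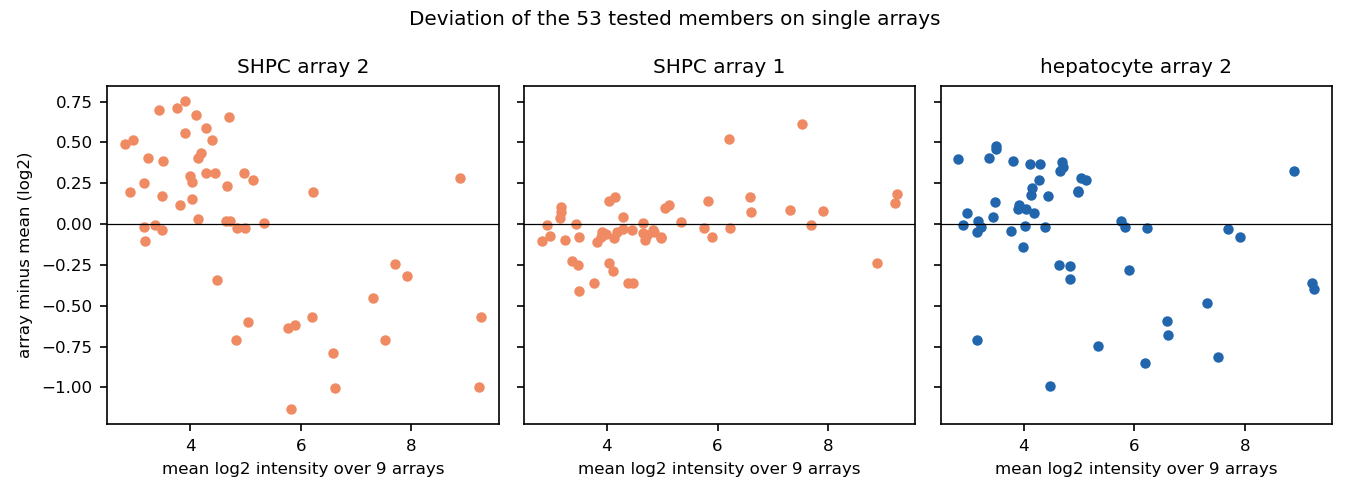
Deviation of each of the 53 tested members (points) from its own mean over the 9 arrays (log2, vertical axis) against that mean (log2 intensity, horizontal axis), on SHPC array 2, SHPC array 1 and hepatocyte array 2. On SHPC array 2 the 22 brighter members lie low (median −0.28) and the 31 dimmer ones high (median 0.30).

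Above the array median on all 9 arrays were 14 of the 29 receptor chains (48.3%), 5 of the 30 ligands (16.7%) and 3 of the 6 inhibitors. The receptor chains were Il10ra, Il10rb, Il11ra1, Il13ra1, Il1r1, Il1rap, Il21r, Il22ra1, Il27ra, Il3ra, Il4r, Il6r, Il6st and Il7r. The ligands were the IL-1 family members Il1a, Il18 and Il33, which can be released by damaged or stressed cells, with Il7 and Il23a. The inhibitors were Il1rn, the IL-18 binding protein Il18bp and the IL-13 decoy receptor Il13ra2. Together these 22 were 33.8% of members, against 54.3% of all named genes. Levels of different genes are not ranked here, since each probe set has its own response.

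A further 26 members lay above the 25th percentile on all 9 arrays but not above the median on all of them. They were the ligands Il1b, Il1f10, Il36b, Il11, Il12a, Il12b, Il13, Il15, Il16, Il19, Il20, Il22, Il24, Il34 and Il9, the receptor chains Il12rb2, Il18r1, Il18rap, Il1rl2, Il20rb, Il2ra, Il2rg, Il31ra and Il9r, and the inhibitors Il1r2 and Il36rn. On some arrays only, 8 members were above background: Il10, Il1rl1, Il20ra, Il22ra2, Il3, Il4, Il5 and Il6. Just inside the filter, Il20ra and Il5 were above background on 3 arrays each and were tested, while just outside it Il1rl1 was on 2 arrays and Il3 and Il4 on 1 each, and they were not.

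At or below background on every array were 9 members (13.8%, against 10.4% of all named genes). They were the T-cell ligands Il2, Il21 and Il31, the IL-36 agonists Il36a and Il36g, the receptor chains Il23r and Il5ra, and Il1rapl1 and Il1rapl2, which are known from neurons. No difference was sought in them, and a level at background does not show that the RNA was absent. Il1rl1, the receptor of IL-33, was at 2.85, 2.85 and 2.83 in SHPC+Thy1, 2.60, 3.66 and 2.85 in SHPC, and 2.65, 3.14 and 2.54 in hepatocytes. The 2 arrays above background were those that stood apart.

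**Figure D2:**
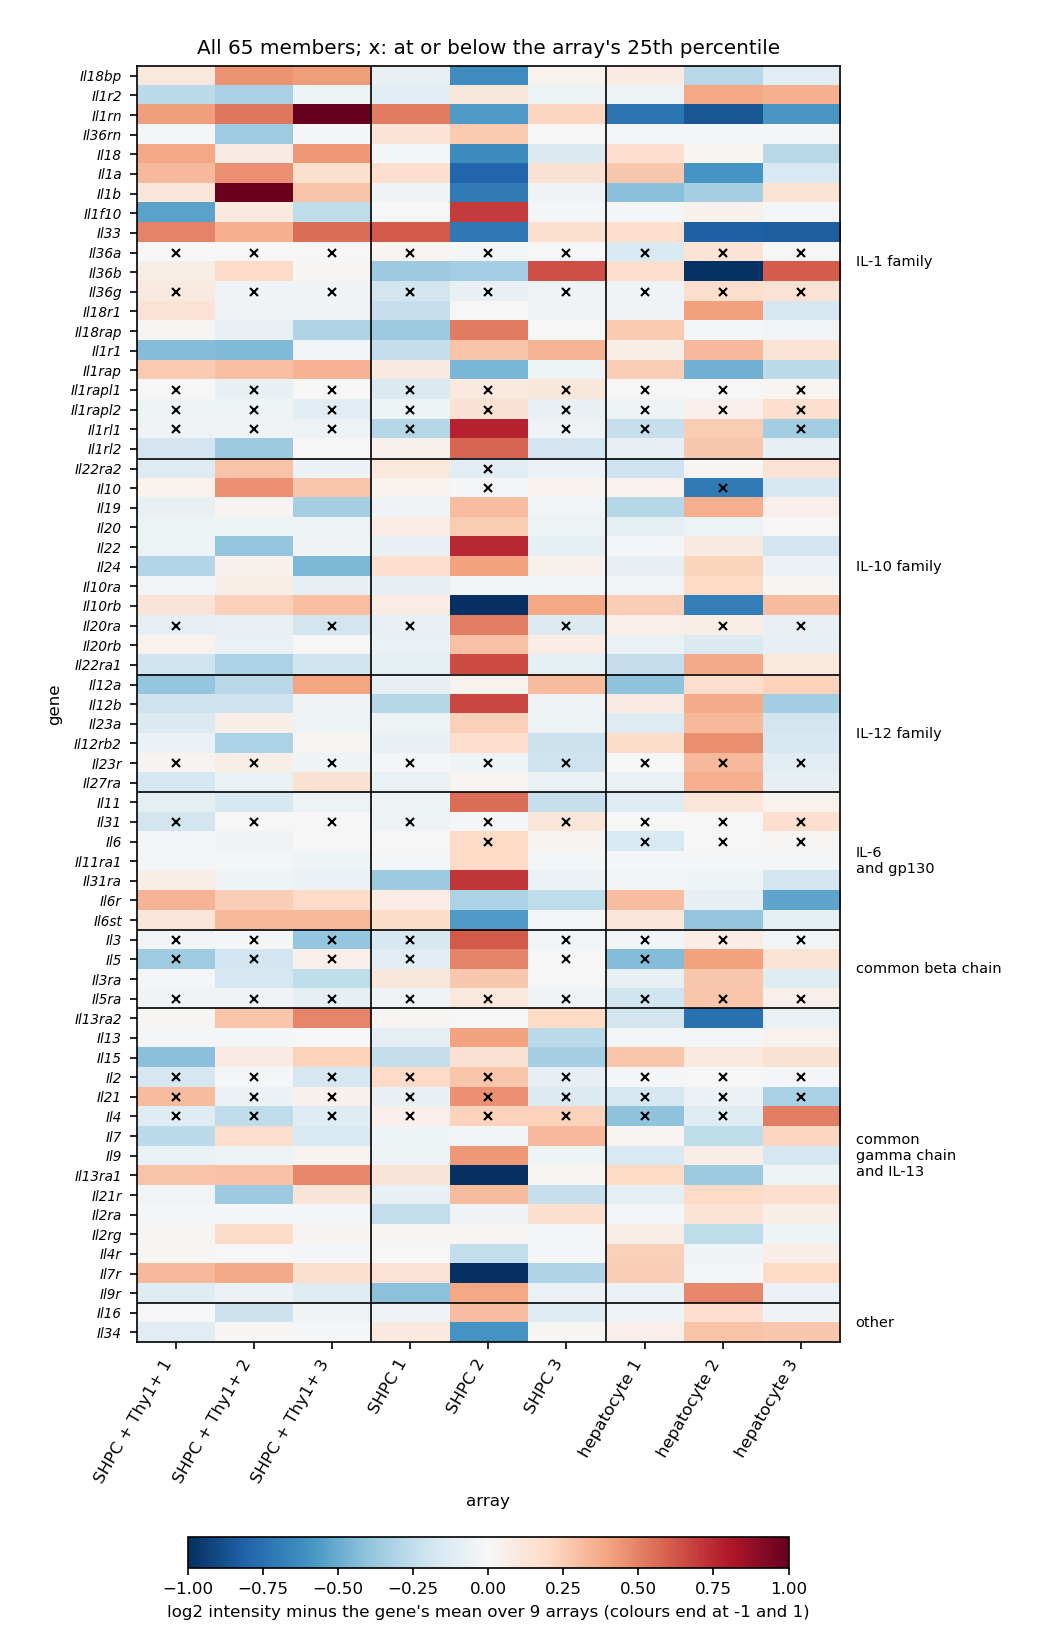
Log2 intensity of all 65 members (rows, by family) on each array (columns) as the difference from the gene's mean over the 9 arrays, from blue (lower) to red (higher), with colours ending at −1 and 1. Crosses mark values at or below the array's 25th percentile, and the Il1rn row is blue on all 3 hepatocyte arrays and red on all 3 SHPC+Thy1 arrays.

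The comparison of SHPC+Thy1 with SHPC clusters bears on how clusters differ where Thy1+ cells were transplanted. Of the 53 tested members 0 passed limma's adjusted p of 0.05 over all tested genes, where the background was 0.00633% of 15793 genes, and the smallest adjusted p among members was 0.548. At an unadjusted p under 0.05 there were 8 members, 6 higher and 2 lower (15.1%, against 7.35% of all genes, 5.07% higher and 2.29% lower). The arrays of the groups lay wholly apart for 10 members, 7 higher and 3 lower (18.9%, against 15.8% of all genes, 10.6% higher and 5.23% lower). Differences ran from −0.46 to 0.72, with 24 members above 0 and 29 below (above 0 for 53% of all genes). The members' median was −0.08, against 0.02 over all genes. The sign of that median rests on the scaling and on 1 array. It was 0.02 with each array centred on its median (all genes 0.12) and 0.01 after quantile normalization or loess (all genes 0.04 and 0.02). It was 0.02 without SHPC array 2 (all genes 0.01).

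SHPC clusters against the hepatocytes beside them give the difference of cluster and surroundings in livers without Thy1+ cells. Here 0 of 53 members passed in limma (background 0.0633%), and the smallest adjusted p was 0.863. At an unadjusted p under 0.05 there was 1 member, Il1rn, which was higher (1.89%, against 4.12% of all genes, 2.31% higher and 1.81% lower). Wholly apart lay 3 members, all higher (5.66%, against 5.22%, 2.72% higher and 2.49% lower). The median was 0.04, against −0.01 over all genes, with 31 members above 0 and 22 below (above 0 for 48.6% of all genes). The sign of this median also rests on 1 array. Without SHPC array 2 it was −0.01 (all genes 0.01), with 25 of 51 tested members above 0. Without both arrays that stood apart it was 0.0013.

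SHPC+Thy1 clusters against hepatocytes differ in cell and in transplantation at once, and share their arrays with the other comparisons. Of the 53 members 1 passed in limma, and it was higher (1.89%, against a background of 1.18%, or 0.861% higher). At an unadjusted p under 0.05 there were 8 members, 6 higher and 2 lower (15.1%, against 10.4% of all genes, 7.07% higher and 3.32% lower). Wholly apart lay 8 members, 6 higher and 2 lower (15.1%, against 19.2%, 12.6% higher and 6.64% lower). With 21 members above 0 and 32 below (above 0 for 49.7% of all genes), the median was −0.07, against −0.0013 over all genes. It was again above 0 with centring, quantile normalization or loess (0.02, 0.01 and 0.01), but still below that of all genes (0.09, 0.02 and 0.02).

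**Figure D3:**
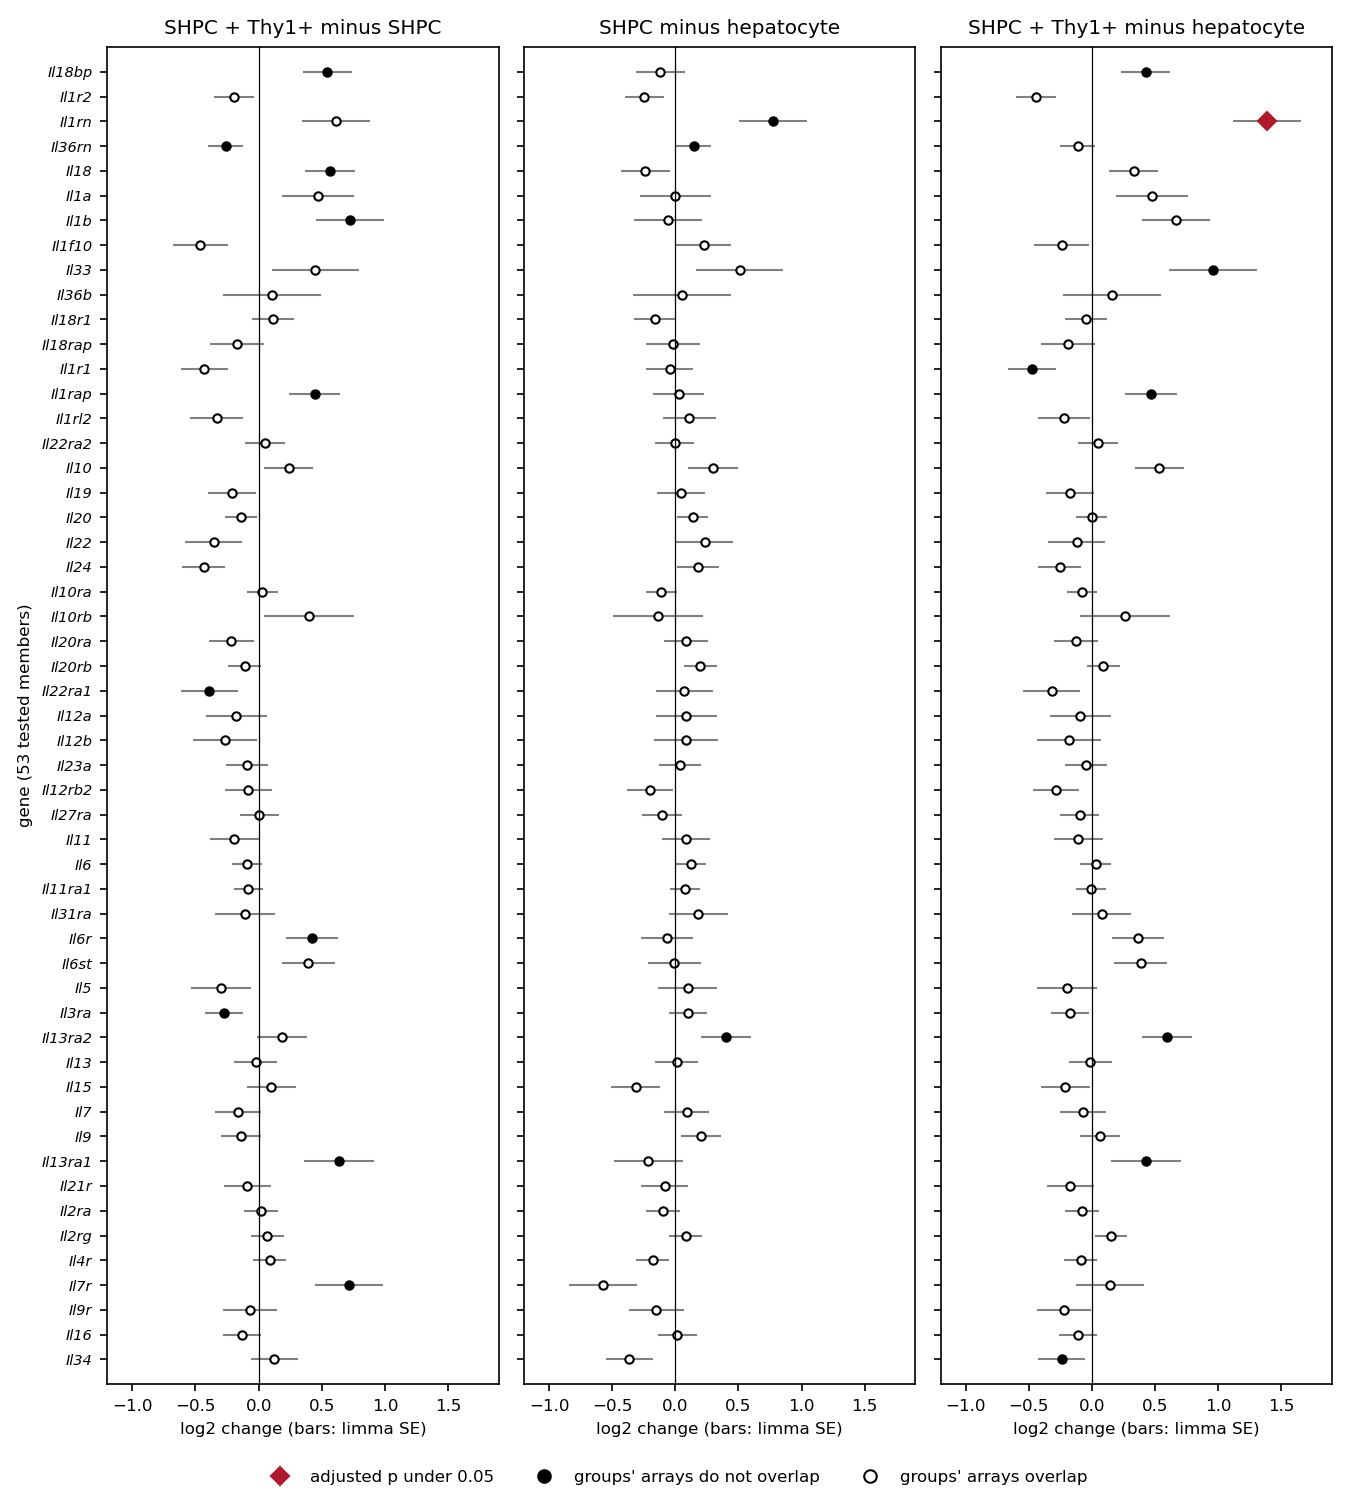
Differences in log2 intensity with limma's SE (horizontal axis) for the 53 tested members (vertical axis), for SHPC+Thy1 against SHPC, SHPC against hepatocytes and SHPC+Thy1 against hepatocytes. Filled points mark groups whose arrays do not overlap, and the Il1rn difference of 1.39 between SHPC+Thy1 and hepatocytes (red diamond) is the 1 that passed.

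Il1rn (probe set 17759790) was at 6.62, 6.73 and 7.25 on the SHPC+Thy1 arrays, at 6.72, 5.63 and 6.42 on the SHPC arrays and at 5.47, 5.35 and 5.62 on the hepatocyte arrays. All 6 cluster arrays lay above all 3 hepatocyte arrays, SHPC array 2 only just, and the 2 kinds of cluster overlapped each other. The means were 6.87 ± 0.34 in SHPC+Thy1, 6.26 ± 0.56 in SHPC and 5.48 ± 0.14 in hepatocytes (SD, n = 3 each). SHPC+Thy1 clusters exceeded hepatocytes by 1.39 ± 0.27 (SE), a fold of 2.62 (limma adjusted p = 0.0430). SHPC clusters exceeded hepatocytes by 0.78 ± 0.27 (SE), which did not pass (limma adjusted p = 0.863), and by 1.09 without SHPC array 2 (limma adjusted p = 0.0827). Between SHPC+Thy1 and SHPC clusters the difference was 0.61 ± 0.27 (limma adjusted p = 0.674), and 0.30 without SHPC array 2.

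The call of Il1rn stood close to the threshold. It was kept in 13 of 21 alternatives, with limma adjusted p-values from 0.000514 to 0.0478, and the difference stayed between 1.20 and 1.51 in all 21. It was lost with array median centring (limma adjusted p = 0.113), and in 7 of the 9 fits that leave out 1 array, those without any SHPC+Thy1 array, any hepatocyte array or SHPC array 3 (limma adjusted p = 0.0681 to 0.207). In RefSeq's annotation the span of Il36b overlaps that of Il1rn, and the sources used here do not place the probes. The level of Il36b itself was 4.54, 4.67 and 4.49 in SHPC+Thy1, 4.12, 4.14 and 5.13 in SHPC and 4.66, 3.49 and 5.08 in hepatocytes, so its groups overlapped.

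In bulk RNA of a captured region, fewer cells of a type and less RNA per cell cannot be told apart. Il1rn is made by macrophages as well as by hepatocytes in an acute phase response. Each of the 16 Kupffer cell and macrophage markers was above background throughout, and together they had a summed log2 level of 11.91 to 12.15 in SHPC+Thy1, 10.99 to 11.72 in SHPC and 11.46 to 11.92 in hepatocytes. Of those markers 13 of 16 lay above 0 between SHPC+Thy1 and hepatocytes, with a median of 0.28, and 1 passed. Without both arrays that stood apart, 9 lay above 0, with a median of 0.08. The marker that passed was Marco, a scavenger receptor, at 0.80 ± 0.16 (SE, limma adjusted p = 0.0456). Its call was kept in 1 of the 9 fits that leave out 1 array, that without SHPC array 2 (limma adjusted p = 0.0255 to 0.203 over the 9). Between SHPC and hepatocytes, 14 of the 16 lay below 0, with a median of −0.30. Without SHPC array 2, 7 of the 16 lay below 0 there, with a median of 0.0041, and without both arrays that stood apart 13 did, with a median of −0.20. The 6 cholangiocyte (bile duct cell) markers had a median of 0.38 between SHPC+Thy1 and hepatocytes, with 4 above 0 and 2 below. Their median was 0.44 without both arrays that stood apart, and 0 passed in any comparison. The part of macrophages or of other cells in the level of Il1rn was not tested.

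Of the IL-1 ligands, Il1b, the form made by activated macrophages, was at 4.96, 5.82 and 5.12 in SHPC+Thy1, 4.80, 4.13 and 4.80 in SHPC and 4.42, 4.50 and 4.97 in hepatocytes. Every SHPC+Thy1 array lay above every SHPC array, and SHPC+Thy1 overlapped hepatocytes by 1 array. The difference from SHPC was 0.72 ± 0.27 (SE, limma adjusted p = 0.619), 0.50 without SHPC array 2 and 0.46 without SHPC+Thy1 array 2. Against hepatocytes it was 0.67 ± 0.27 (limma adjusted p = 0.423), and 0.41 without SHPC+Thy1 array 2. Il1a, the form active without processing, was at 6.91, 7.04 and 6.75 in SHPC+Thy1, 6.75, 5.79 and 6.74 in SHPC and 6.86, 5.99 and 6.43 in hepatocytes. The lowest values of SHPC and of hepatocytes were on the arrays that stood apart.

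Il33, a nuclear alarmin of endothelial, stellate and epithelial cells, was at 8.02, 7.87 and 8.08 in SHPC+Thy1, 8.13, 6.81 and 7.68 in SHPC and 7.69, 6.70 and 6.70 in hepatocytes. SHPC+Thy1 arrays lay above all hepatocyte arrays, with a spread of 0.10 in SHPC+Thy1 against 0.57 in hepatocytes (SD, n = 3 each), and the SHPC arrays overlapped both. The difference from hepatocytes was 0.96 ± 0.35 (SE, limma adjusted p = 0.344). The 10 stellate cell and fibroblast markers had a summed log2 level of 9.95 to 10.22 in SHPC+Thy1, 9.52 to 9.97 in SHPC and 9.63 to 10.15 in hepatocytes, and the 5 endothelial markers one of 9.52 to 9.74 in SHPC+Thy1, 8.96 to 9.49 in SHPC and 9.17 to 9.71 in hepatocytes. All were above background on all 9 arrays, and their part in the level of Il33 was not tested.

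Il18, which drives interferon gamma release, and its soluble inhibitor Il18bp differed in the same direction between the 2 kinds of cluster, without passing. Il18 was at 6.15, 5.84 and 6.19 in SHPC+Thy1, 5.74, 5.13 and 5.62 in SHPC and 5.94, 5.78 and 5.48 in hepatocytes. Il18bp was at 6.004, 6.35 and 6.32 in SHPC+Thy1, 5.82, 5.28 and 5.93 in SHPC and 5.99, 5.62 and 5.79 in hepatocytes. SHPC+Thy1 lay above SHPC on every array for both genes, and above hepatocytes on every array for Il18bp. The SHPC+Thy1 difference from SHPC was 0.56 ± 0.20 for Il18 (SE, limma adjusted p = 0.548) and 0.54 ± 0.19 for Il18bp (limma adjusted p = 0.578). Without SHPC array 2 these differences were 0.38 and 0.35. Il18r1 and Il18rap, the chains of the IL-18 receptor, overlapped between the groups.

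Of the chains that bind IL-1, Il1r1, the signalling receptor, was at 8.45, 8.44 and 8.85 in SHPC+Thy1, 8.65, 9.16 and 9.22 in SHPC and 8.94, 9.21 and 9.02 in hepatocytes. SHPC+Thy1 lay below every hepatocyte array and overlapped SHPC. The difference was −0.47 ± 0.19 from hepatocytes (SE, limma adjusted p = 0.415) and −0.43 ± 0.19 from SHPC (limma adjusted p = 0.674). Leaving out SHPC array 2, the difference of Il1r1 from SHPC was −0.35. Its partner Il1rap, shared with the receptors of IL-33 and IL-36, was at 7.57, 7.61 and 7.66 in SHPC+Thy1, 7.40, 6.85 and 7.26 in SHPC and 7.56, 6.83 and 7.05 in hepatocytes. SHPC+Thy1 lay above all arrays of both other groups. The difference was 0.44 ± 0.20 from SHPC (limma adjusted p = 0.695), and 0.29 without SHPC array 2, and 0.47 ± 0.20 from hepatocytes (limma adjusted p = 0.467), and 0.31 without hepatocyte array 2.

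The decoy receptor Il1r2, which binds IL-1 without signalling, was at 3.56, 3.49 and 3.76 in SHPC+Thy1, 3.70, 3.93 and 3.76 in SHPC and 3.76, 4.20 and 4.17 in hepatocytes. Its difference from hepatocytes was −0.44 ± 0.16 (SE, limma adjusted p = 0.332), with overlapping arrays. The IL-36 receptor antagonist Il36rn was at 4.02, 3.68 and 4.02 in SHPC+Thy1, 4.17, 4.29 and 4.04 in SHPC and 4.02 on all 3 hepatocyte arrays. SHPC lay above both other groups by small steps, 0.15 ± 0.14 over hepatocytes (limma adjusted p = 1), with SHPC+Thy1 below it by 0.26 ± 0.14 (limma adjusted p = 0.706). The step over hepatocytes was 0.08 without SHPC array 2, and the SHPC+Thy1 difference from SHPC was −0.15 without SHPC+Thy1 array 2. Il36rn carried the same value on 5 arrays. The IL-36 receptor Il1rl2 and the ligand Il1f10 gave overlapping groups.

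**Figure D4:**
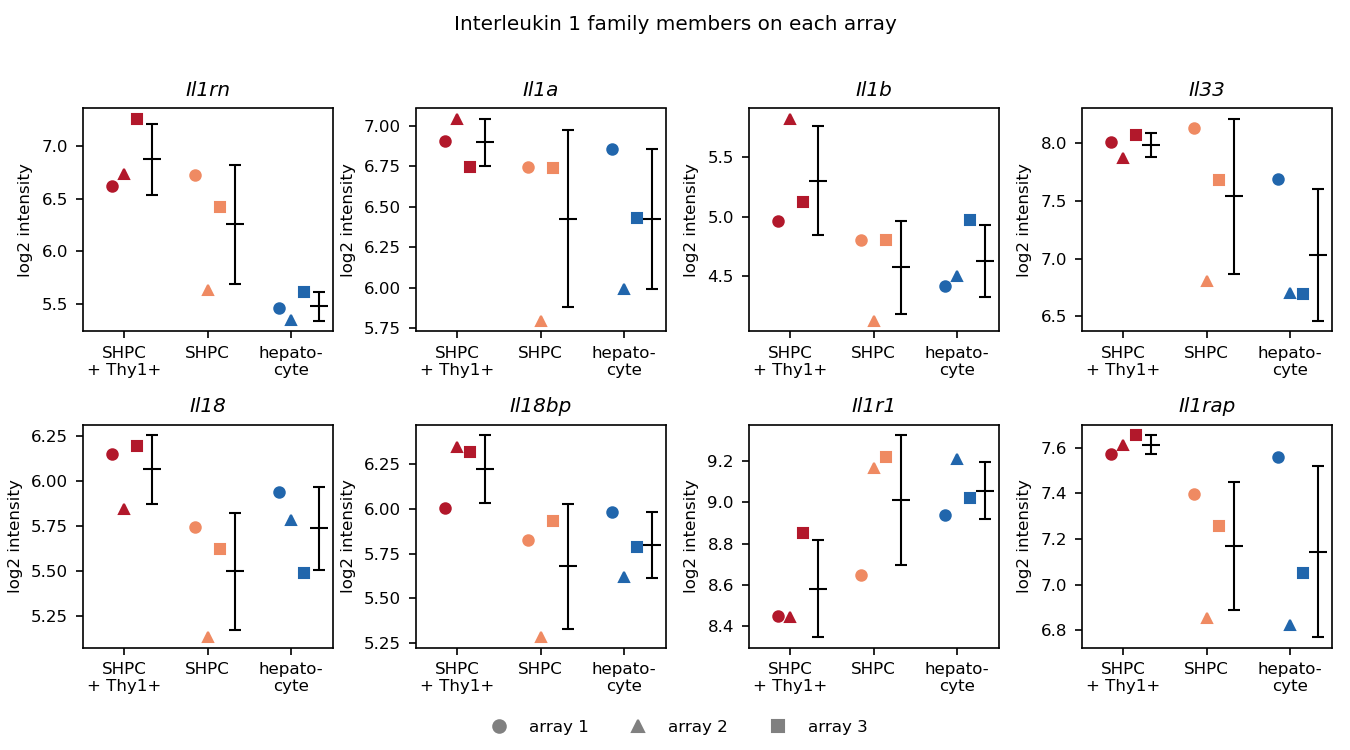
Log2 intensity (vertical axis) of IL-1 family ligands, receptor chains and inhibitors on each of the 9 arrays (points, with shapes for array number) by group (horizontal axis: SHPC+Thy1, SHPC, hepatocyte), with bars for mean and SD of 3 arrays. For Il1rn all cluster arrays lie above the 3 hepatocyte arrays at 5.35 to 5.62.

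Il6, the acute phase cytokine, was near background throughout, at 2.89, 2.88 and 2.91 in SHPC+Thy1, 2.91, 3.11 and 2.94 in SHPC and 2.76, 2.91 and 2.92 in hepatocytes, and above it on 5 of 9 arrays. Its receptor chain Il6r was at 8.26, 8.16 and 8.11 in SHPC+Thy1, 7.99, 7.60 and 7.66 in SHPC and 8.22, 7.83 and 7.39 in hepatocytes. SHPC+Thy1 lay above SHPC on every array, by 0.43 ± 0.21 (SE, limma adjusted p = 0.697), or 0.35 without SHPC array 2, while hepatocytes overlapped both. The signalling chain gp130 (Il6st) was at 9.37, 9.58 and 9.58 in SHPC+Thy1, 9.44, 8.68 and 9.23 in SHPC and 9.37, 8.86 and 9.15 in hepatocytes. Its groups overlapped. Il11ra1, the receptor of IL-11, carried 1 same value on 6 of 9 arrays, 6.20, with 6.20 also on SHPC array 3 after rounding, 6.18 on SHPC+Thy1 array 3 and 6.42 on SHPC array 2. Il31ra, Il11 and Il27ra gave overlapping groups.

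Chains that bind IL-4 and IL-13 were above the array median on all 9 arrays. Il13ra1, which pairs with Il4r, was at 9.50, 9.51 and 9.70 in SHPC+Thy1, 9.34, 8.22 and 9.24 in SHPC and 9.41, 8.85 and 9.17 in hepatocytes. Every SHPC+Thy1 array lay above both other groups. The difference was 0.64 ± 0.28 from SHPC (SE, limma adjusted p = 0.669), or 0.28 without SHPC array 2, and 0.42 ± 0.28 from hepatocytes (limma adjusted p = 0.653), or 0.28 without hepatocyte array 2. Il4r was at 7.71, 7.69 and 7.68 in SHPC+Thy1, 7.69, 7.45 and 7.68 in SHPC and 7.94, 7.66 and 7.76 in hepatocytes, and its groups overlapped.

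The decoy Il13ra2 was at 5.35, 5.61 and 5.83 in SHPC+Thy1, 5.35, 5.34 and 5.54 in SHPC and 5.16, 4.59 and 5.27 in hepatocytes. Both kinds of cluster lay above all hepatocyte arrays and overlapped each other. The difference from hepatocytes was 0.59 ± 0.20 in SHPC+Thy1 (SE, limma adjusted p = 0.286) and 0.40 ± 0.20 in SHPC (limma adjusted p = 1). Without hepatocyte array 2 alone these were 0.38 and 0.20, and without SHPC array 2 as well they were 0.38 and 0.23. Il13ra1 and Il13ra2 each have a second probe set. That of Il13ra1 gave values close to those above, 9.48 to 9.56 in SHPC+Thy1, 8.28 to 9.28 in SHPC and 8.77 to 9.27 in hepatocytes. That of Il13ra2 lay below background on 8 of 9 arrays, from 1.86 to 3.14, so the level of Il13ra2 rests on 1 probe set.

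Of the common gamma chain group, the receptor of IL-7, Il7r, was at 6.16, 6.21 and 5.99 in SHPC+Thy1, 5.97, 4.70 and 5.53 in SHPC and 6.08, 5.82 and 6.03 in hepatocytes. SHPC+Thy1 lay above SHPC on every array and overlapped hepatocytes. The difference from SHPC was 0.72 ± 0.27 (SE, limma adjusted p = 0.619), or 0.37 without SHPC array 2, which had the lowest value of all 9. The shared chain Il2rg was at 4.65, 4.83 and 4.67 in SHPC+Thy1, 4.65, 4.66 and 4.63 in SHPC and 4.70, 4.39 and 4.61 in hepatocytes. The ligand Il15, which sustains NK cells, was at 3.62, 4.12 and 4.27 in SHPC+Thy1, 3.81, 4.20 and 3.71 in SHPC and 4.32, 4.14 and 4.19 in hepatocytes. Groups of both genes overlapped.

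The 16 markers of T and NK cells named on the platform had a summed log2 level of 8.99 to 9.27 in SHPC+Thy1, 8.63 to 8.94 in SHPC and 8.64 to 9.17 in hepatocytes. The T-cell receptor chain Cd3d was at background on every array, and 12 of the 16 were above it on all 9. Of 14 tested, 5 lay above 0 and 9 below between SHPC+Thy1 and SHPC, with a median of −0.05. Without SHPC array 2, 8 lay above 0, with a median of 0.07, and 0 passed in any comparison. Their part in the level of Il7r, a receptor of lymphocytes, was not tested.

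**Figure D5:**
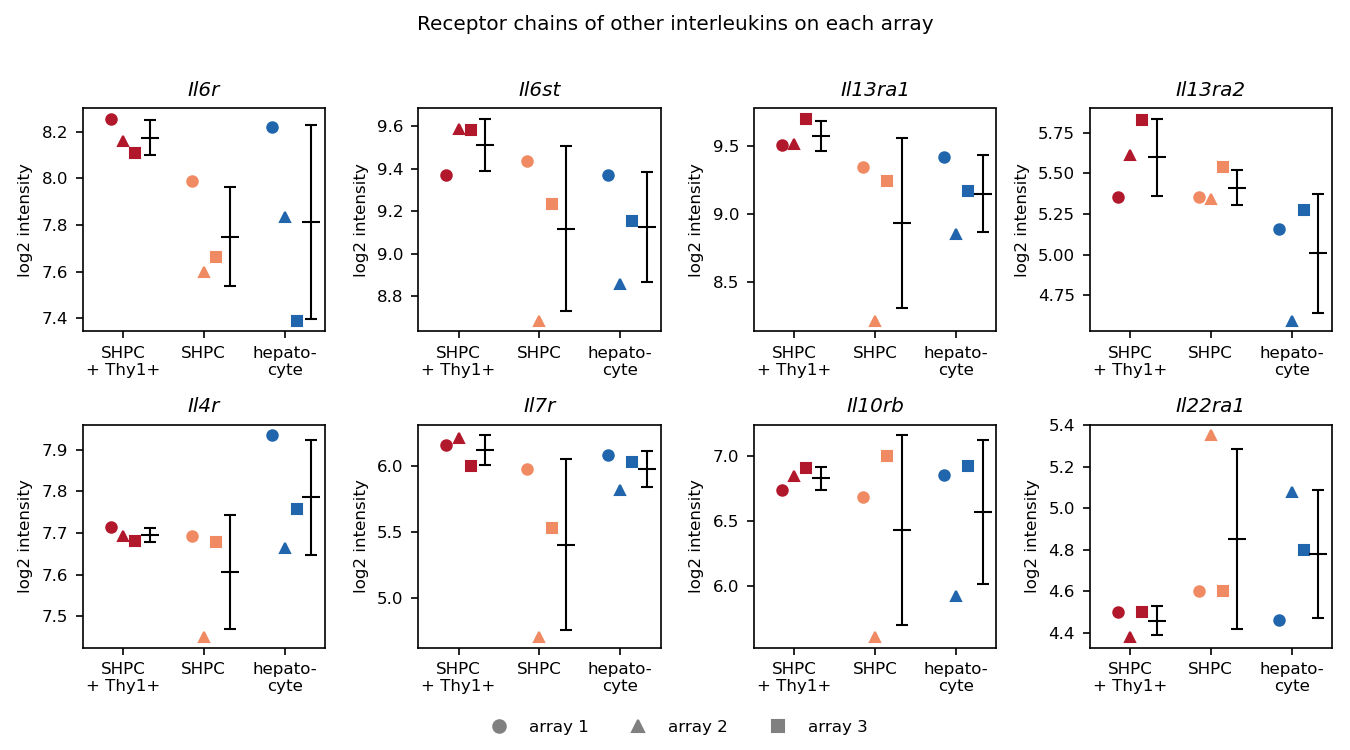
Log2 intensity (vertical axis, a scale of its own for each gene) of 8 receptor chains outside the IL-1 family on each of the 9 arrays (points, with shapes for array number) by group (horizontal axis: SHPC+Thy1, SHPC, hepatocyte), with bars for mean and SD of 3 arrays. SHPC array 2 is the lowest point for Il7r at 4.70, Il13ra1 at 8.22 and Il10rb at 5.61.

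In the IL-10 family, Il10 itself, a cytokine that damps inflammation, was dim, at 3.20, 3.62 and 3.44 in SHPC+Thy1, 3.20, 3.14 and 3.20 in SHPC and 3.20, 2.45 and 3.00 in hepatocytes. The difference of 0.53 ± 0.20 between SHPC+Thy1 and hepatocytes (SE, limma adjusted p = 0.356) was 0.32 without hepatocyte array 2, where Il10 was below background. The shared chain Il10rb was at 6.74, 6.85 and 6.91 in SHPC+Thy1, 6.68, 5.61 and 7.00 in SHPC and 6.86, 5.93 and 6.92 in hepatocytes. Both low values were those of the arrays that stood apart. Il22ra1, the IL-22 receptor chain of epithelial cells and hepatocytes, was at 4.50, 4.38 and 4.50 in SHPC+Thy1, 4.60, 5.35 and 4.60 in SHPC and 4.46, 5.08 and 4.80 in hepatocytes. SHPC+Thy1 lay below SHPC on every array, by 0.39 ± 0.23 (limma adjusted p = 0.706), which was 0.14 below without SHPC array 2. Il24 was at 3.86, 4.19 and 3.70 in SHPC+Thy1, 4.32, 4.55 and 4.19 in SHPC and 4.07, 4.37 and 4.09 in hepatocytes. Its SHPC+Thy1 and SHPC arrays touched at 4.19, and the difference was −0.44 ± 0.17 (limma adjusted p = 0.636), or −0.34 without SHPC array 2.

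Of the remaining receptors and ligands, Il3ra, the IL-3 receptor chain, was at 5.11, 4.95 and 4.87 in SHPC+Thy1, 5.24, 5.40 and 5.12 in SHPC and 5.05, 5.40 and 5.01 in hepatocytes. SHPC+Thy1 lay below SHPC on every array, by 0.28 ± 0.15 (SE, limma adjusted p = 0.706), or 0.20 without SHPC array 2. Il34, a second ligand of the macrophage growth factor receptor Csf1r, was at 4.93, 5.05 and 5.03 in SHPC+Thy1, 5.14, 4.44 and 5.05 in SHPC and 5.09, 5.33 and 5.31 in hepatocytes. SHPC+Thy1 lay below every hepatocyte array, by 0.24 ± 0.19 (limma adjusted p = 0.703). The IL-12 family (Il12a, Il12b, Il23a, Il12rb2 and Il27ra tested) and Il16 had no member that lay wholly apart in any comparison. The groups of the other tested members overlapped too in all 3 comparisons.

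Genes that carry or answer these signals were counted from lists, of which the acute phase list holds the member Il1rn too. Of the JAK kinases, STAT proteins and SOCS inhibitors, 25 were tested, and 0 passed in any comparison, with medians of 0.14 between SHPC+Thy1 and SHPC, −0.09 between SHPC and hepatocytes and 0.13 between SHPC+Thy1 and hepatocytes. Without SHPC array 2 the first of these was 0.02 and the second 0.08, and without both arrays that stood apart the third was −0.03. Stat5b, which carries growth hormone and cytokine signals, differed by 0.63 ± 0.21 between SHPC+Thy1 and SHPC (SE, limma adjusted p = 0.497). Leaving out SHPC array 2, the Stat5b difference was 0.44. Socs7 went the other way in that comparison, by −0.43 ± 0.13 (limma adjusted p = 0.460), or −0.37 without SHPC array 2. Of the MyD88 and NF-κB branch 25 were tested and 0 passed. Of these, 22 lay above 0 between SHPC+Thy1 and SHPC (median 0.12), where 53% of all genes did, and 15 did without SHPC array 2 (median 0.08). Peli2, a ubiquitin ligase of the IL-1 receptor complex, was at −0.56 ± 0.15 between SHPC+Thy1 and hepatocytes (limma adjusted p = 0.138). Nfkbiz of the same list went the other way there, by 0.35 ± 0.17 (limma adjusted p = 0.529).

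The inflammasome list, whose caspases release active IL-1β and IL-18, had 11 tested genes, of which 0 passed. Casp4 differed by 0.75 ± 0.28 between SHPC+Thy1 and SHPC (SE, limma adjusted p = 0.619), and by 0.45 without SHPC array 2. Of 16 further cytokines and receptors that share chains or ligands with the interleukins 0 passed in any comparison. Csf1r differed by 0.86 ± 0.29 between SHPC+Thy1 and SHPC (limma adjusted p = 0.531), and by 0.61 without SHPC array 2. Ifnlr1 went the other way there, by −0.39 ± 0.19 (limma adjusted p = 0.697), or −0.27 without SHPC array 2. Of 20 acute phase genes 2 passed between SHPC+Thy1 and hepatocytes, both higher, where 1.18% of all genes passed and 0.861% were higher, and 0 in the other comparisons. One was Il1rn, already counted among the members, and the other A2m, the protease inhibitor known in rats as the strong IL-6 responsive acute phase protein. A2m was at 6.20, 6.92 and 7.43 in SHPC+Thy1, 6.56, 6.63 and 6.66 in SHPC and 3.96, 5.28 and 4.50 in hepatocytes. Both kinds of cluster lay wholly above hepatocytes, by 2.27 ± 0.35 in SHPC+Thy1 (SE, limma adjusted p = 0.0206) and by 2.03 ± 0.35 in SHPC, which did not pass (limma adjusted p = 0.114). The call of A2m was kept in 5 of the 9 fits that leave out 1 array, and lost without SHPC+Thy1 array 2 or 3 or hepatocyte array 1 or 3 (limma adjusted p = 0.0684 to 0.103).

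All 16 Kupffer cell and macrophage markers lay above 0 between SHPC+Thy1 and SHPC, with a median of 0.56, and 0 passed in that comparison. Leaving out SHPC array 2, all 16 still lay above 0, with a median of 0.20. Il1b, Il18, Il18bp, Il7r and Casp4 also had higher values there, and none of these passed. So did Il13ra1, Il1rap and Il6r, without passing either. Of the 8 hepatocyte markers 7 lay above 0 too, or 5 without SHPC array 2. The part of macrophages in any of these values was not tested. Timd4, a receptor of resident Kupffer cells, differed by 0.98 ± 0.27 (SE, limma adjusted p = 0.401). Timd4 was lowest on SHPC array 2, at 5.64, and its difference was 0.72 without that array. Of the markers of neutrophils and mast cells, S100a8, Cpa3 and Ms4a2 were at background on all 9 arrays, as was Cr2 among the B cell markers, and 0 of either list passed.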

How the data were processed

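Values of 9 arrays, 3 a group, were used. For each of 36685 probe sets, a linear intensity was deposited, made by the authors with RMA (background correction, normalization between arrays and summary of probes), per the submitters' processing notes. The sources used here give no RMA version and no genome build. The log2 of each deposited intensity was taken here. 0 values were missing, 0 columns belonged to other samples and 0 pairs of arrays were identical.

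The platform annotation gave 18511 probe sets 1 symbol and 575 several (not named), leaving 17599 unnamed. For 18166 genes, 291 of them with more than 1 probe set, the probe set with the highest mean was used. A gene was tested where at least 3 arrays exceeded the array's 25th percentile (15793 genes, with 2373 dim ones left out).

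Groups came from the cell type label. The description label of the hepatocytes disagrees with their cell type label, naming transplanted SHPCs, and the cell type label was followed. The donor cell number is not printed, since its exponent is unclear. 1 fit of 3 group means (limma 3.58.1 in R 4.3.3, eBayes, 6 residual degrees of freedom) gave differences with SE and p-values adjusted by Benjamini-Hochberg over all tested genes at 0.05. The fit was tested on simulated data. The number of arrays limits the precision.

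The members, gene lists, tests and the rule for named genes were chosen with earlier results of these data known. The rule gave array values to members past the threshold, to up to 8 a direction and comparison whose groups lay apart, and to a list of receptors and ligands of liver interest. Il1a, Il1r2, Il1rl1, Il24, Il10 and Il36b were added after their values were seen. From other lists, up to 2 genes a comparison came from those with the smallest p. List medians and list genes without the arrays that stand apart, and the list genes that passed with 1 array left out, were added after seeing the data.

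Same-numbered arrays deviated together for SHPC and hepatocytes (correlations 0.526, 0.705 and 0.341 over genes). They did not for SHPC+Thy1 with either (−0.094 to 0.002). The main fit did not use the numbers, which entered only as replicate blocks among the alternatives. The arrays that stood apart share a number, and theirs was the highest correlation, 0.705. Whether equal numbers mark paired regions was not tested. Alternatives covered scaling, the filter on dim genes, the choice of probe set, the samples fitted, weights, moderation, replicate blocks and arrays left out. Sequences are RefSeq's.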

Additional observations from a re-analysis of the deposited data

How the results depend on the processing

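The 27 differences named for single members kept their sign in every alternative run. That followed largely from how they were chosen, by groups lying wholly apart or an unadjusted p under 0.05. Groups that lie apart cannot change sign when an array is left out, and several other alternatives leave the difference itself unchanged. The kept signs therefore add no support to these differences. The count of members called in limma, 0 between SHPC+Thy1 and SHPC, 0 between SHPC and hepatocytes and 1 between SHPC+Thy1 and hepatocytes, moved as follows. With array median centring it was 0 between SHPC+Thy1 and hepatocytes. With array quality weights it was 11 there (10 higher and 1 lower, of 2685 genes called, against 186) and 2 between SHPC and hepatocytes, Il1rn and Il33 (of 375 genes called, against 10). Leaving out 1 array at a time, the count was 0 to 1 between SHPC+Thy1 and hepatocytes and 0 to 0 in each of the others. With the replicate number as a fixed or random block it stayed 0, 0 and 1. The fixed replicate block took the count over all genes to 35, against 10, between SHPC and hepatocytes. That count was 76 with the compared groups only, a setting chosen after seeing the data. Between SHPC+Thy1 and hepatocytes the fixed block gave an Il1rn adjusted p in limma of 0.0101. Same-numbered arrays of these groups did not deviate together, so that value adds no support to the call. Over all genes, counts ran from 0 to 259, against 1, between SHPC+Thy1 and SHPC, from 0 to 375, against 10, between SHPC and hepatocytes, and from 31 to 2685, against 186, between SHPC+Thy1 and hepatocytes. Signal over background limits the 12 members that were not tested. The causes of these shifts were not tested.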

Other observations

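Several members carried the same value on several arrays. For 26 of 65 members (40%, against 29.1% of all named genes) at least 3 arrays shared 1 value, and for 4 members (6.15%, against 5.02%) at least 5 did: Il11ra1, Il20, Il36a and Il36rn. The sources used here do not say how such values arose.

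Members lie next to each other in RefSeq's GRCr8 annotation. Il1r2, Il1r1, Il1rl2, Il1rl1, Il18r1 and Il18rap follow in a row on chromosome 9. Of these, Il1r1 and Il1r2 had values below hepatocytes at an unadjusted limma p under 0.05 in SHPC+Thy1 clusters. The same held for 3.32% of all genes, and neither gene passed after adjustment. Il1rl2, Il18r1 and Il18rap did not reach that unadjusted p, and Il1rl1 was not tested. Il36g, Il36a, Il36b, Il36rn, Il1f10 and Il1rn lie together on chromosome 3, and of these Il1rn passed between SHPC+Thy1 clusters and hepatocytes.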
